A study of Brassica rapa and Brassica rapa x Brassica nigra and Brassica nigra with 18 samples.

Results

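Anther RNA of a synthetic Brassica allohaploid (AB) at meiosis was compared with the mid-parent level, which is the level that an equal mix of RNA from both parents would give. The comparison used 9 of the 18 libraries of the series, all from young anthers at meiosis (sporogenesis): 3 of AB, 3 of Brassica rapa (AA) and 3 of Brassica nigra (BB). The AB plants were haploids whose seed parent was B. rapa and whose pollen parent was B. nigra, and the labels name them Brassica juncea. The same growth text, which gives this cross, is attached to the parental libraries as well, so the labels do not describe how the parents were grown. The deposited count table held 79644 genes, of which 62225 had a count at meiosis and 41757 passed the filter for low counts and were tested. Library totals were 11592377 to 11729613 counts in AB and 10514482 to 11729745 counts in the parents. Whether replicate libraries stem from different plants is not stated, so every p-value rests on a spread between libraries that may be technical alone. The identifiers carry no gene names, so the tissue could not be checked against marker genes and gene roles are not given.

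In an anther at meiosis, pollen mother cells pair their homologous chromosomes and divide into tetrads of microspores, while the surrounding tapetum feeds them. An allohaploid carries a single copy of each parental genome, so its chromosomes have no true homologues to pair with. A gene that simply kept the expression of its parental genome would sit at the mid-parent level in such a plant, and a departure from that level is called non-additive expression. In RNA from whole anthers, fewer cells of a type and less RNA per cell cannot be told apart.

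Levels are given as CPM, a gene's count as a share of the total count of its library, and the mid-parent level is the mean of the AA and BB group means in CPM. Each tested gene was placed by where its parental RNA came from and not by the genome named in its identifier. A total of 19652 genes were expressed from AA, with at least 90% of their parental CPM in that parent, and 20000 genes were expressed from BB by the same rule. Another 2046 genes drew between 10% and 90% of their parental CPM from AA and are called expressed from both, and 59 tested genes had no count in either parent. Origin and genome label usually coincided, but 832 A-labelled genes were expressed from BB and 576 B-labelled genes from AA. Among genes of unplaced sequence, whose identifiers begin with BjuO, 2181 were expressed from BB and 768 from AA. Where an A gene and a B gene are nearly identical, their reads may be counted on either one, so levels of such genes are uncertain.

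Summed over each genome, AB lay close to the parental mix. A-labelled genes took 49.1% of counts in each of the 3 AB libraries (SD 0.0223 percentage points), against 48.7% in each of the 3 mixes (SD 0.0168). B-labelled genes took 43.8% ± 0.0387 of AB counts and 44.1% ± 0.00653 of the mixes (SD, n = 3 each), and unplaced genes took 7.15% ± 0.0179 and 7.16% ± 0.0106. The difference, AB minus mix, was 0.407 percentage points for the A share and -0.393 points for the B share. For both genomes all AB libraries lay on one side of all mixes (exact permutation test, two-sided, p = 0.1, the smallest p that 3 against 3 allows). For unplaced genes the libraries and mixes overlapped (exact permutation p = 0.4). The sign of both differences turned when the 100 most abundant genes were left out, to -0.725 points for the A share and 0.712 points for the B share.

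Within this near-even split, many genes departed from the mid-parent level. Turning the mean AB profile into the mid-parent profile would move 23.8% of all counts from one gene to another. The same measure was 3.70% to 3.76% between AB libraries and 2.81% to 3.03% between mixes. It was 50.1% for AB against AA, 52.7% for AB against BB and 97.1% for AA against BB. AB therefore stood far outside the spread of its own libraries. Since the parents shared so little, its about equal distance from each mainly restates the even split of counts by genome. The 100 genes with the largest differences in CPM held 19.8% of the difference between AB and mid-parent, so most of it was spread over other genes. Counts were also more concentrated in AB. The top 100 genes of a profile held 14.1% ± 0.0855 of counts in AB and 13.0% ± 0.0287 in the mixes, and the most abundant genes that hold 50% of counts numbered 2075 ± 7.0 in AB and 2333 ± 5.20 in the mixes (SD, n = 3 each). Both measures separated all AB libraries from all mixes (exact permutation p = 0.1, the smallest possible).

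Of the 41757 tested genes, 26208 (62.8%) differed from the mid-parent level at an adjusted p under 0.05 in the edgeR quasi-likelihood test. In AB 11576 genes were higher (27.7%) and 14632 were lower (35.0%), and 15549 passed in neither direction. A difference of at least 2-fold was found for 4509 higher genes (10.8%) and 7157 lower genes (17.1%), which is 27.9% in either direction. The median log2 difference of AB from mid-parent over all tested genes was -0.10, and the middle 50% of genes ran from -0.71 to 0.47. Among called genes the median log2 difference was 0.83 for higher genes and -0.98 for lower genes. Higher genes held 56.1% of AB counts and 33.1% of mid-parent counts, while lower genes held 26.0% of AB counts and 48.9% of mid-parent counts. Together the called genes held 96.3% of the difference between the profiles. These shares use the libraries that gave the calls, so they describe the called genes and are no separate result. The AB libraries and the mixes did not overlap in 28576 genes (68.4%). The 95% interval of the difference lay within 1.5-fold of mid-parent on both sides for 9136 genes (21.9%), so these are the genes that the libraries place near the mid-parent level.

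The low-count filter has a bearing on this split. A total of 374 genes passed it through the AB libraries alone, and all 374 were higher in AB. Another 2942 passed although no AB library reached its level of 0.857 CPM, and 2182 of these were lower in AB. Without both sets 11202 genes were higher and 12450 lower, and the median over all genes was -0.034. These sets are called one-sided below, since they passed through AB alone or through the parents alone. Membership depends on the AB level itself and more genes leave on the lower side, so medians without them rise by the removal.

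Genes expressed from AA were more often lower than higher in AB. Of 19652 such genes, 4438 were higher (22.6%) and 7065 lower (36.0%), beside 27.7% and 35.0% of all tested genes. Their median log2 difference was -0.16, with the middle 50% between -0.70 and 0.31, and the medians of the 3 AB libraries taken singly were -0.17, -0.17 and -0.18. At least 2-fold differences were found for 1171 higher and 3200 lower genes, 22.2% of the class beside 27.9% of all tested genes. Without one-sided genes 4363 were higher and 5987 lower, with a median of -0.096. The interval lay within 1.5-fold of mid-parent for 5169 genes (26.3%). The sum over the class was close to the mix despite these calls. Genes expressed from AA took 47.6% ± 0.0322 of AB counts and 47.5% ± 0.00850 of the mixes (SD, n = 3 each). The 4438 higher genes held 25.1% of AB counts and 15.6% of mid-parent counts, with a median mid-parent level of 12.1 CPM. The 7065 lower genes held 12.4% of AB counts and 21.7% of mid-parent counts, with a median mid-parent level of 10.0 CPM. The split depended on the weight given to each parent. With AA weighted 0.55 in the mix it was 3417 higher and 8503 lower, and with AA weighted 0.45 it was 5763 higher and 5655 lower.

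Genes expressed from BB had a wider spread of differences, in both directions. Of 20000 such genes, 6399 were higher in AB (32.0%) and 7027 lower (35.1%), so that 67.1% were called, beside 58.5% of the genes expressed from AA. At least 2-fold differences were found for 3004 higher and 3751 lower genes, 33.8% of the class. The middle 50% of log2 differences ran from -0.76 to 0.63, a width of 1.39, against 1.01 for genes expressed from AA. The interval lay within 1.5-fold of mid-parent for 3506 genes (17.5%). The class median was -0.036, and it turned positive under the other scalings, at 0.0080 with TMM factors and 0.043 with relative log expression factors, where 6952 genes were higher and 6470 lower. It also turned without one-sided genes, to 0.032 with 6199 higher and 5993 lower. Those left out include 1322 genes of the class with no AB library at the level of the filter, 1034 of them lower. A rise of the median follows from that removal, so the turn does not settle a direction. The share of counts on the class was slightly lower than in the mix. It was 46.8% ± 0.0319 in AB and 47.9% ± 0.00654 in the mixes (SD, n = 3 each). All AB libraries lay below all mixes (exact permutation p = 0.1, the smallest possible). The split turned with the weights here as well, to 7470 higher and 5993 lower with AA weighted 0.55, and to 5479 higher and 7967 lower with AA weighted 0.45.

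Genes expressed from both parents were more often higher than lower. Of 2046 genes, 680 were higher (33.2%) and 540 lower (26.4%), with a median log2 difference of 0.038. Their share of counts was 5.27% ± 0.0197 in AB and 4.28% ± 0.00771 in the mixes (SD, n = 3 each), and all AB libraries lay above all mixes (exact permutation p = 0.1, the smallest possible). The median turned to -0.025 without the filter for low counts and to -0.11 when origin was taken from the parental libraries at mitosis, where 531 genes were higher and 664 lower.

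**Figure D1:**
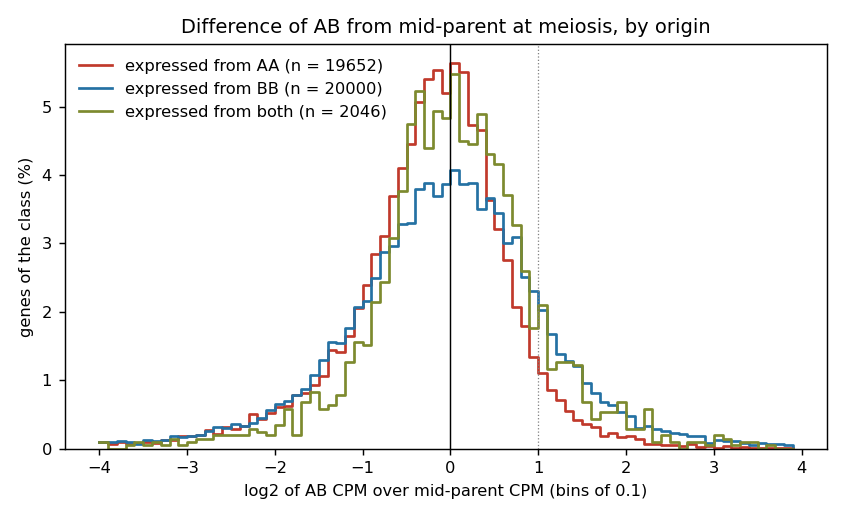
Distribution of the log2 difference of AB from mid-parent at meiosis, in bins of 0.1 on the x axis, with the percentage of genes of each origin class on the y axis. The black line marks the mid-parent level and the dotted line the level of the parent that alone expresses a gene. The curve of the genes expressed from BB is lower and wider (middle 50% over 1.39) than that of the genes expressed from AA (1.01).

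The distribution by origin shows the same differences gene by gene. All 3 classes had their bulk between -1 and 1 on the log2 scale, and the BB class stood out by its flanks on both sides. A gene expressed by a single parent and kept at that parent's own level would have a log2 difference of 1, and the curves of the genes expressed from AA and from BB fell through that value without a peak.

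**Figure D2:**
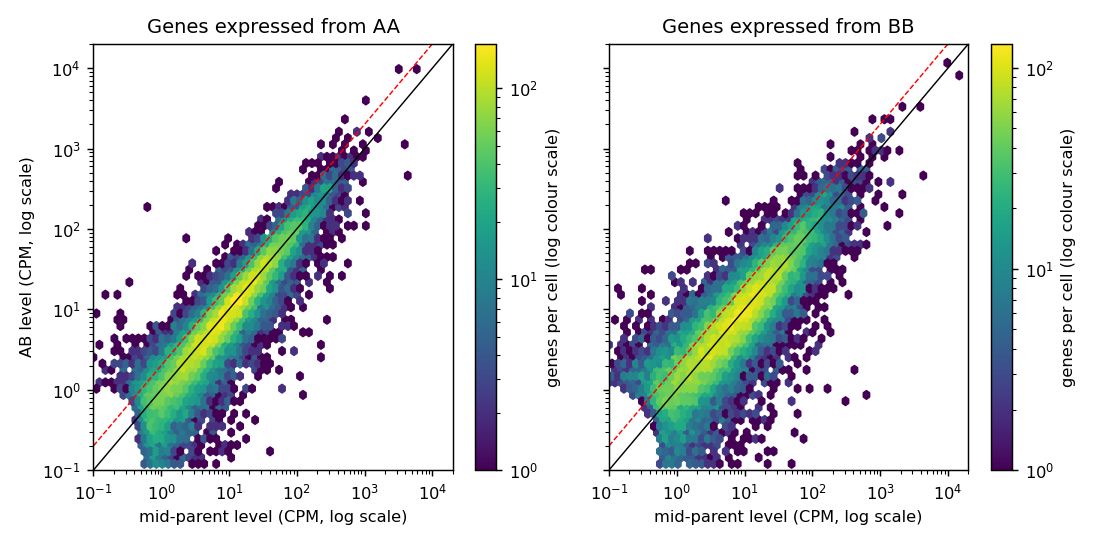
Mean AB level against mid-parent level in CPM at meiosis, both on log axes, for genes expressed from AA (left) and from BB (right), with colour giving the number of genes per cell. The black line marks equality with mid-parent and the red dashed line the level of the expressing parent. Genes gather along the black line in both panels, with wider scatter for genes expressed from BB.

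The plot of levels shows this over the whole range of expression. Up to 500 CPM the called share was larger at higher levels in each class, from 42.3% of genes expressed from AA with a level under 2 CPM to 85.2% of those between 100 and 500 CPM, and from 48.6% to 92.2% in the same bins of genes expressed from BB. That rise was in calls of any size. Calls of at least 2-fold were fewer in the higher of these bins, at 37.1% and 15.2% for AA, 43.9% and 35.2% for BB, and 35.4% and 21.0% for both. This was no steady fall with level. From 20 to 100 CPM the shares were smaller still, at 13.7% for AA, 27.9% for BB and 17.5% for both. At 500 CPM and above they were 41.1%, 30.9% and 22.2%. The level here is the mean of AB and mid-parent. The median log2 difference of genes expressed from AA was -0.46 below 2 CPM, -0.23 from 2 to 5 CPM, -0.13 from 5 to 20 CPM, -0.0090 from 20 to 100 CPM and 0.096 from 100 to 500 CPM. Below 2 CPM, 1438 of the 4436 genes of this class had no AB library at the level of the filter, and without one-sided genes the median of that bin was -0.086. From 2 to 5 CPM it was then -0.21. In genes expressed from BB the medians of the same bins were -0.091, -0.063, -0.037, 0.0034 and 0.18. Without one-sided genes the median below 2 CPM was 0.25. Of the 4471 genes of that bin, 1144 had no AB library at the level of the filter, so the rise to 0.25 follows from the removal. In genes expressed from both the medians of the same bins were -0.12, 0.012, -0.024, 0.26 and 0.45. At 500 CPM and above, 33 of 56 genes expressed from AA were higher and 18 lower. In the same bin 25 of 55 genes expressed from BB were higher and 25 lower, and 8 of 9 genes expressed from both were higher.

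**Figure D3:**
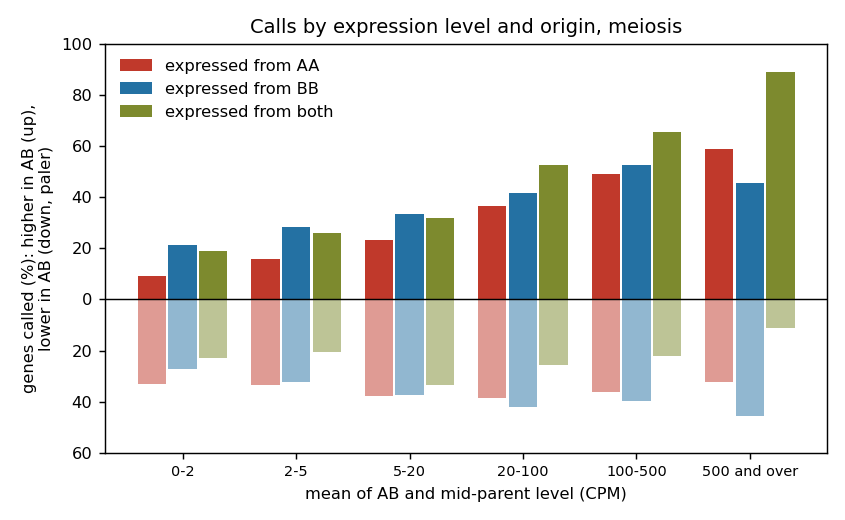
Percentage of genes called higher (upward bars) and lower (downward, paler bars) in AB than mid-parent at meiosis, by the mean of the AB and mid-parent level in CPM and by origin. In each class the upward bars grow with level up to 500 CPM. Between 100 and 500 CPM, 408 of 833 genes expressed from AA were higher and 302 were lower. In the same bin 413 of 785 genes expressed from BB were higher and 311 lower, and 53 of 81 from both were higher and 18 lower.

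The bars by level differ between the classes. In genes expressed from AA, 412 were higher and 1465 lower below 2 CPM, and without one-sided genes 365 were higher and 479 lower there. From 5 to 20 CPM, where 13 genes of the class had no AB library at the level of the filter, 1469 were higher and 2393 lower. From 20 to 100 CPM 1497 were higher and 1584 lower. At that level 1658 genes expressed from BB were higher and 1668 lower, and of genes expressed from both 199 were higher and 97 lower. Below 2 CPM, genes expressed from BB were 951 higher and 1223 lower with all genes, and 783 higher and 367 lower without one-sided genes.

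Some genes left the range of both parents. Against each parent alone, AB was higher than AA in 50.3% and lower in 41.7% of all tested genes, and higher than BB in 53.0% and lower in 36.1%. AB was above AA and above BB, each at an adjusted p under 0.05 in edgeR, for 2562 genes (6.14% of all tested), and below both for 114 genes (0.273%). Of the genes above both, 366 had passed the filter through AB alone. The class expressed from BB held 1674 of them, which is 8.37% of that class, and the class expressed from AA held 538, which is 2.74% of it. Genes expressed from both parents lay above both in 291 cases (14.2%) and below both in 104 cases (5.08%). A gene without counts in one parent cannot fall below it, and 3 genes expressed from AA and 7 expressed from BB were below both.

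A few genes were detected on one side only. A total of 269 of the 41757 tested genes had no count in any AB library. They were 204 of the 20000 genes expressed from BB, 64 of the 19652 from AA and 1 of the 2046 from both. Their median mid-parent level was 1.49 CPM, which makes the median gene at least 17.4-fold lower in AB against a floor of 3 counts over the group. The most abundant of them had a mid-parent level of 148 CPM and was at least 1722-fold lower. In the other direction, 59 of the 41757 tested genes were counted in AB and in no parental library. Their median AB level was 2.03 CPM, at least 22.7-fold higher than the same floor, and the most abundant had 70.1 CPM in AB and was at least 785-fold higher. Such floors cover counting error only. All of these genes belong to the one-sided sets, since they could pass the filter only through the side that had counts. Their calls and folds therefore describe genes chosen by that side and are no separate result.

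The genes furthest from mid-parent in each class, chosen by size of difference among 14352 well-counted genes, show the extremes of these shifts. BjuO007483 is an unplaced gene with a coding length of 177 bases. Its level was 174, 186 and 182 CPM in AB, against 1.54, 1.11 and 1.20 CPM in AA and no count in BB. AB was 282-fold above mid-parent (log2 8.14, SE 0.19, edgeR adjusted p = 1.05e-22) and far above both parents. BjuA036140 had 71.7, 74.9 and 67.4 CPM in AB, against 3.51, 5.88 and 5.49 CPM in AA and no count in BB (log2 4.85, SE 0.14, edgeR adjusted p = 1.35e-17). Every AB library exceeded every AA library by over 10-fold for both genes. BjuA021992 moved the other way, with 1.55, 1.11 and 1.71 CPM in AB, against 235, 245 and 254 CPM in AA and no count in BB (log2 -6.39, SE 0.18, edgeR adjusted p = 6.13e-21). BjuA025853 had 1.90, 3.08 and 2.98 CPM in AB, against 414, 415 and 410 CPM in AA and at most 0.285 CPM in BB (log2 -6.28, SE 0.16, edgeR adjusted p = 1.15e-22). These genes were abundant in AA and nearly absent from AB in every library.

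Among the named genes expressed from BB, BjuB027411 was highest over mid-parent. It had 235, 244 and 237 CPM in AB, against at most 0.512 CPM in AA and 10.6, 11.5 and 11.5 CPM in BB (log2 5.39, SE 0.096, edgeR adjusted p = 9.83e-23). BjuB021876 had 28.0, 26.4 and 27.5 CPM in AB, against at most 0.257 CPM in AA and 1.49, 1.81 and 1.36 CPM in BB (log2 5.04, SE 0.22, edgeR adjusted p = 1.78e-16). In both genes all AB libraries lay above all parental libraries. BjuO012565 was nearly lost in AB, with 0.173, 0.342 and 2.05 CPM in AB, against at most 0.0853 CPM in AA and 1120, 1157 and 1154 CPM in BB. Its 3 AB libraries held 2, 4 and 24 counts, so AB replicate 3 carried most of them. Its log2 difference was -9.39 (SE 0.37, edgeR adjusted p = 6.35e-23), and -11.12 without AB replicate 3. BjuO006647 had 1.81, 2.14 and 1.79 CPM in AB, against at most 0.0856 CPM in AA and 848, 886 and 861 CPM in BB (log2 -7.82, SE 0.14, edgeR adjusted p = 3.16e-26). Both unplaced genes were abundant in every BB library and had at most 2.14 CPM in any AB library.

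The genes named by the same rule among those expressed from both parents come from a class of 2046 genes. BjuO007721 had 25.02, 21.3 and 23.3 CPM in AB, against 1.63, 1.36 and 2.92 CPM in AA and 2.42, 2.47 and 1.81 CPM in BB (log2 3.46, SE 0.17, edgeR adjusted p = 1.38e-14). BjuB023473 had 10.6, 10.0 and 9.80 CPM in AB, against 0.171, 1.11 and 0.686 CPM in AA and 1.49, 1.43 and 2.27 CPM in BB (log2 3.09, SE 0.25, edgeR adjusted p = 1.23e-10). Both stood above both parents, whose levels overlapped or lay close together. BjuA010052 had 21.1, 21.4 and 21.5 CPM in AB, against 1964, 1992 and 2016 CPM in AA and 234, 250 and 238 CPM in BB (log2 -5.71, SE 0.048, edgeR adjusted p = 6.62e-28). BjuA011933 had 1.47, 1.20 and 0.938 CPM in AB, against 8.73, 9.89 and 10.8 CPM in AA and 29.4, 29.6 and 25.04 CPM in BB (log2 -3.98, SE 0.22, edgeR adjusted p = 8.99e-15). In both genes every AB library lay below every library of either parent.

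**Figure D4:**
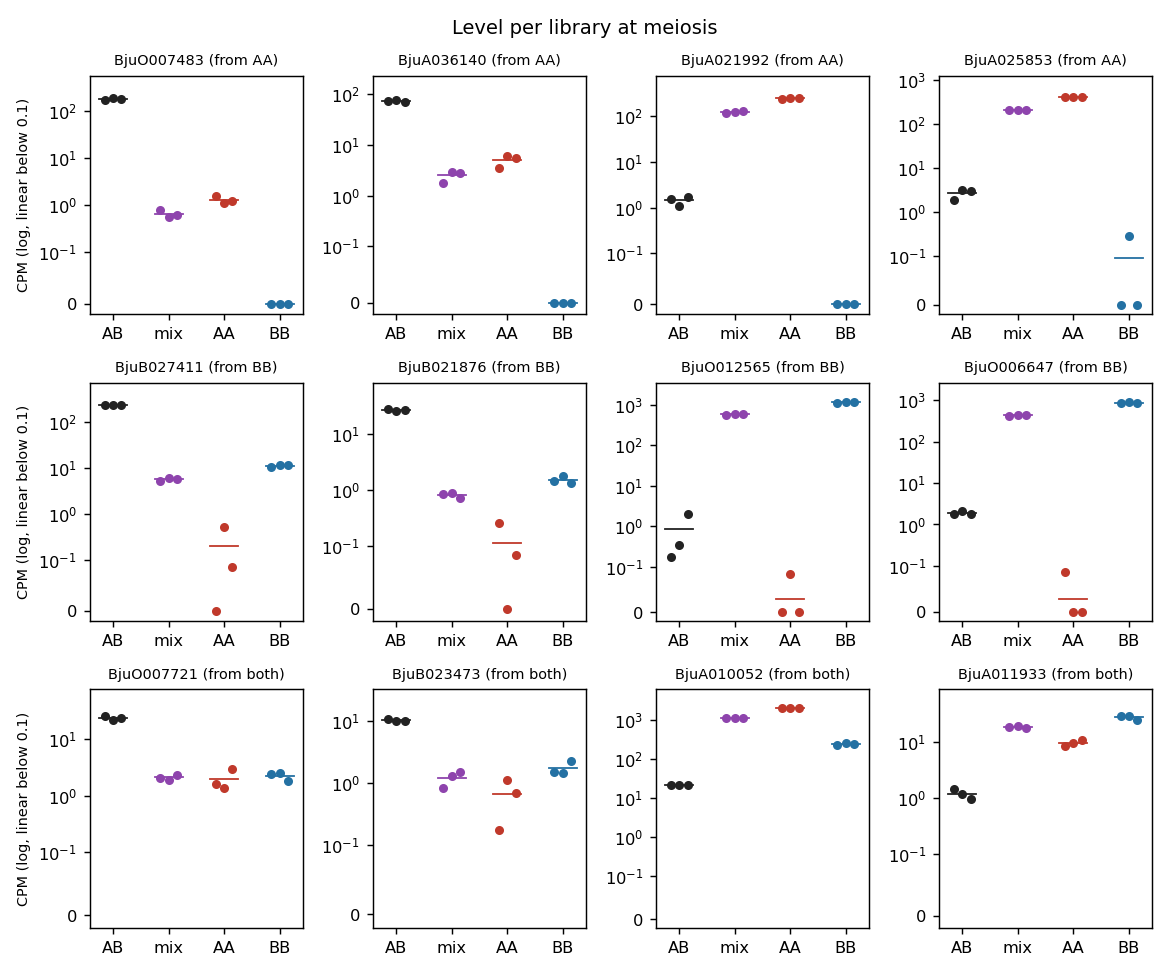
Level in CPM (log scale, linear below 0.1) of the 12 named genes, 1 panel per gene and 1 point per library, with bars at group means. AB libraries are shown first, then the 3 mixes, AA and BB. AB lies apart from all mixes in every panel because the naming rule required it. The points of a group lie close together except for AB in BjuO012565 and groups near 0.

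The plot of single libraries shows the spread within groups beside these differences, which were chosen for their size and for no overlap with the mixes. No processing alternative changed the direction or the call of any of these 12 genes.

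Coding length went with the direction of the difference in genes expressed from BB. Lengths follow from the deposited FPKM values, and tested genes were divided into quartiles of 111 to 699, 702 to 1113, 1116 to 1656 and 1659 to 14286 bases. In genes expressed from BB the median log2 difference of AB from mid-parent was 0.32, 0.076, -0.094 and -0.39 from the shortest to the longest quartile. Of the shortest quartile 45.6% were higher and 24.9% lower in AB, and of the longest 17.6% were higher and 47.6% lower. In genes expressed from AA the medians were -0.20, -0.15, -0.10 and -0.18, with 22.4% of the shortest and 19.1% of the longest quartile higher. In genes expressed from both they were 0.37, 0.26, 0.15 and -0.19. The longest minus the shortest quartile came to -0.71 in genes expressed from BB (SD 0.026 over the 3 AB libraries) and 0.021 in genes expressed from AA (SD 0.018). The value for AA was close to 0 and unsettled, at 0.037 without AB replicate 3, 0.014 without AA replicate 3 and -0.044 without one-sided genes. The contrast was also present at matched levels. Between 20 and 100 CPM the shortest and longest quartiles had medians of 0.46 and -0.39 for genes expressed from BB, and of -0.052 and -0.016 for genes expressed from AA.

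**Figure D5:**
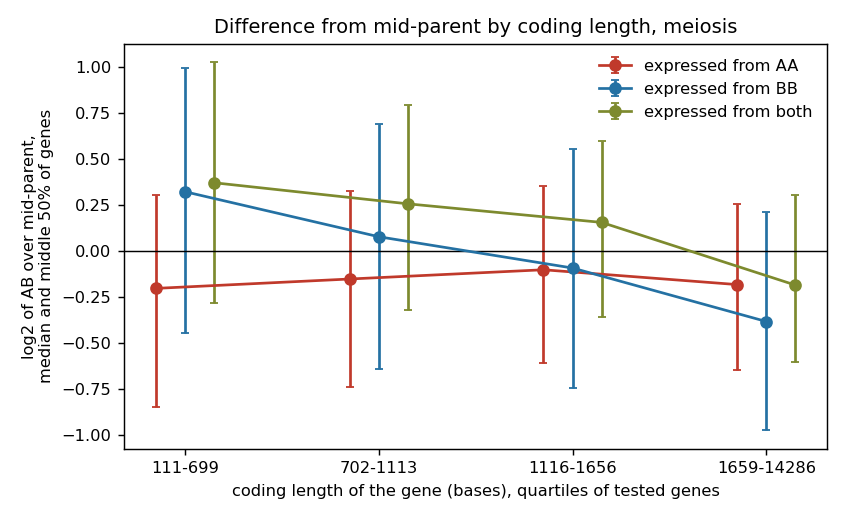
Median log2 difference of AB from mid-parent at meiosis (points) and the middle 50% of genes (bars) by quartile of coding length in bases on the x axis, for genes expressed from AA, BB or both. The medians fall from 0.32 to -0.39 over the quartiles in genes expressed from BB and stay between -0.20 and -0.10 in genes expressed from AA.

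The plot by coding length shows medians of the BB class on both sides of mid-parent, with bars that still overlap between quartiles. The parents themselves differed in this respect. The mean coding length weighted by counts was 1129 to 1135 bases in AB libraries, against 1116 to 1120 bases in AA and 1271 to 1281 bases in BB. Of the counts on genes expressed from BB, the longest quartile took 17.7% ± 0.0980 in AB and 22.1% ± 0.151 in BB, and the shortest took 33.4% ± 0.233 in AB and 27.3% ± 0.354 in BB (SD, n = 3 each). Of the counts on genes expressed from AA, the longest took 16.7% ± 0.102 in AB and 16.5% ± 0.0638 in AA, and the shortest 34.0% ± 0.237 in AB and 34.9% ± 0.128 in AA.

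The libraries at mitosis (gametogenesis) are a separate set of 3 AB, 3 AA and 3 BB anther libraries, so the same genes could be followed there. At mitosis 58.1% of 43321 tested genes differed from mid-parent in edgeR, 15368 higher in AB (35.5%) and 9783 lower (22.6%). This split depended on scaling, with 10984 higher and 12754 lower under TMM factors and 11388 higher and 12405 lower under relative log expression factors. Those factors lowered all log2 differences at mitosis by 0.19 and 0.17, and raised those at meiosis by 0.044 and 0.079. Of 10544 genes higher at meiosis and tested at both stages, 47.1% were also higher at mitosis and 14.8% were lower, beside 38.2% and 18.7% of all 37017 genes tested at both. These shared higher genes were 35.2% of the genes higher at mitosis, beside the 28.5% of all genes tested at both that were higher at meiosis. Of 12959 genes lower at meiosis, 26.0% were also lower at mitosis and 33.9% were higher, and the shared lower genes were 48.8% of those lower at mitosis, beside 35.0% of all genes.

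By origin, genes expressed from BB that were lower at meiosis were lower at mitosis in 33.9% of cases, beside 22.6% of all genes of that class. For genes expressed from AA the shares were 18.3% and 14.8%. Genes expressed from AA that were lower at meiosis were higher at mitosis in 44.0% of cases, beside 43.3% of all genes of that class. For genes expressed from BB those shares were 23.8% and 32.9%. Across genes, Spearman's rho between the log2 differences at the stages was 0.33 for 17927 genes expressed from BB and 0.085 for 17166 genes expressed from AA, given as a description since genes are not independent and each stage shares its libraries over all genes. By coding length, medians at mitosis from the shortest to the longest quartile were 0.14, 0.18, 0.12 and 0.090 in genes expressed from BB and 0.16, 0.30, 0.35 and 0.44 in genes expressed from AA, all scaled by library totals.

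Of the 12 genes named above, 10 were called in the same direction at mitosis, none in the opposite one, and 2 were not called in edgeR. BjuO007483 had 99.3, 112 and 102 CPM in AB at mitosis and no count in any parental library. BjuB021876 was 5.68 above mid-parent on the log2 scale (SE 0.20), BjuB027411 3.19 (SE 0.19), BjuO007721 2.72 (SE 0.12) and BjuA036140 2.33 (SE 0.12). All 12 were chosen as extremes at meiosis, so a smaller difference at mitosis is no finding. Those named as lower had log2 differences at mitosis of -6.39 for BjuO012565 (SE 0.41), -2.08 for BjuA025853 (SE 0.091), -1.47 for BjuO006647 (SE 0.076), -0.53 for BjuA010052 (SE 0.060) and -0.44 for BjuA021992 (SE 0.070). The remaining pair passed in neither direction at mitosis: BjuB023473 had a log2 difference of 0.57 (SE 0.27, edgeR adjusted p = 0.0709) and BjuA011933 one of -0.024 (SE 0.096, edgeR adjusted p = 0.853).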

How the data were processed

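For 18 libraries the authors deposited raw gene counts in one table and FPKM values in another. The submitters' processing notes name HTSeq 0.6.0, TopHat2, HISAT2 2.1.0 and Bowtie 1.0.1. What each tool did, the build, the annotation and the strand setting are not given in those sources. The deposited FPKM values served only to derive gene lengths, 99.9% of them multiples of 3, and these are therefore called coding lengths. A duplicate of 1 column was not used. Of the reference table available here, 0 identifiers matched, so genes have no names.

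Counts were scaled by library totals of all genes, filtered with the group-wise low-count filter of edgeR 4.0.16 (R 4.3.3) and fitted in 9 libraries with 1 spread. The null that the AB mean equals the arithmetic mean of the AA and BB means was fitted per gene by maximum likelihood, and the deviance difference was set against the quasi-dispersion of edgeR in a quasi-likelihood F test, since the test of edgeR itself takes no such null. Benjamini-Hochberg adjustment ran over all tested genes, with 0.05 as the threshold for a call. Levels above or below both parents used the quasi-likelihood test of edgeR against each parent. Mixes are the mean CPM of the AA and BB libraries with 1 number, which only names libraries. Replicates of a group differed beyond counting noise (chi-square per degree of freedom 2.30 to 2.74), so none were merged.

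Named genes are the 2 highest and the 2 lowest by log2 difference per origin class, among called genes with at least 10 CPM in the higher of AB and mid-parent, on average 10 or more counts per library in AB and in the higher parent, and no overlap of AB libraries with mixes. Alternatives were TMM and relative log expression scaling, edgeR, DESeq2 1.42.0 and limma 3.58.1 (log2 of CPM + 1) on mixes, other filters, parental weights and origin rules, a replicate block, all 18 libraries and leaving out each library. The comparison, classes and lists were chosen with earlier results of these data known, and the length and level summaries and values without one-sided genes were added after seeing the data.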

Additional observations from a re-analysis of the deposited data

Results flagged for a closer look

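AB lay on the other side of mid-parent at mitosis than at meiosis in several sums scaled by library totals, in every AB library of each stage. The difference between the stages was not tested. The median log2 difference of AB from mid-parent was 0.18 at mitosis and -0.10 at meiosis over all tested genes. It was 0.27 at mitosis and -0.16 at meiosis for genes expressed from AA, and 0.10 and -0.036 for genes expressed from BB. The share of counts on genes expressed from BB differed, AB minus mix, by 4.98 percentage points at mitosis and by -1.14 points at meiosis. The share on genes expressed from both parents differed by -0.690 points at mitosis and by 0.985 points at meiosis. These shares are over genes tested at meiosis, and for that whole set they differed by 5.89 points at mitosis and by -0.026 points at meiosis, so the set as a whole took a larger share in AB at mitosis. The medians depended on scaling. With TMM factors the median over all genes was -0.0094 at mitosis and -0.056 at meiosis, on one side at both. With TMM the BB median was -0.087 at mitosis and 0.0080 at meiosis, which is the opposite order. For genes expressed from AA the signs stayed, at 0.083 and -0.12. With relative log expression factors the medians at mitosis and meiosis were 0.0098 and -0.020 over all genes, 0.10 and -0.083 for AA, and -0.068 and 0.043 for BB.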

How the results depend on the processing

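Counts of higher and lower genes over all tested genes stayed within 1.5 times under other scalings, weights and tools, at 11984 and 15007 with edgeR on mixes, 10913 and 13542 with DESeq2, 11969 and 15167 with limma, and 11360 and 14433 with all 18 libraries in the fit. The replicate numbers did not pair the libraries (correlations of same-numbered deviations -0.020 to 0.030, 0 of 9 over 0.1). With the replicate block 11023 genes were higher and 14012 lower, 2453 above and 112 below both parents. Leaving out 1 library gave 10764 to 11252 higher and 13643 to 14205 lower genes. It gave medians of -0.10 to -0.098 over all genes, -0.044 to -0.033 for BB and 0.038 to 0.054 for both origins, a profile difference of 23.8% to 23.9%, and length contrasts of 0.014 to 0.037 for AA and -0.73 to -0.69 for BB.

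Medians moved with most settings, here for all genes, those expressed from AA, from BB and from both. They were -0.056, -0.12, 0.0080 and 0.082 with TMM factors, -0.020, -0.083, 0.043 and 0.12 with relative log expression factors, and -0.12, -0.26, -0.087 and -0.025 without a filter. They were -0.033, -0.061, -0.0086 and 0.087 at a mean level of at least 5 CPM, -0.12, -0.30, 0.11 and 0.031 with AA weighted 0.55, and -0.069, -0.012, -0.17 and 0.067 with AA weighted 0.45. For AA, BB and both they were -0.16, -0.032 and 0.050 with origin set at 80%, -0.17, -0.047 and 0.077 at 95%, and -0.14, -0.026 and -0.11 with origin from mitosis. By genome label the AA median was -0.15. Without one-sided genes, chosen after seeing the data, the 4 medians were -0.034, -0.096, 0.032 and 0.069.

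At a mean level of at least 5 CPM, chosen after seeing the data, fewer genes were tested (23894). Then 8259 were higher, 3454 from AA, 4316 from BB and 485 from both. At that level 9198 were lower, 4351 from AA, 4490 from BB and 357 from both, with 1523 above and 66 below both parents. At least 2-fold left 4509 higher and 7157 lower. Genes from both numbered 328 higher and 265 lower with origin at 80%, and 1164 and 875 at 95%, where the class itself shrinks or grows. Without the 100 most abundant genes the label shares reversed to -0.725, 0.712 and 0.0122 percentage points for A, B and unplaced genes, and the cause was not tested. The profile difference was 22.9% without those genes, 23.9% with AA weighted 0.55 and 24.4% with 0.45. The length contrast was 0.16 for AA and -0.51 for BB without a filter, -0.024 and -0.82 at 5 CPM or more, and -0.044 and -0.75 without one-sided genes.

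Equal parental weights assume equal RNA from each genome, and CPM measures shares of RNA, not amounts per cell. Genes below the filter, at 0.857 CPM or about 10 counts in a library, were not tested.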
